A study of Mus musculus with 151 samples.

Results

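The cytosolic ribosomal protein genes are the subject here: the 81 genes of the count table whose symbols match Rpl, Rps, Rplp or Rpsa names of the large and small subunit, out of 55291 genes listed, with 51 of the large and 30 of the small subunit. The rule used names only and no measured value entered it, though it was chosen with earlier results of these data known. It left out processed copies whose symbols end in "-ps" and a number, protein kinases such as *Rps6ka2*, and a few true relatives such as *Rps3a1*, *Fau* and *Rack1*, which are given apart. It took in 2 genes that the annotation calls processed pseudogenes, *Rpl6l* and *Rpl32l*.

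Single hair cells of the mouse cochlea were sequenced in 3 groups, each library being 1 manually picked cell of the C57BL/6 strain. The 55 P14_WT IHCs (inner hair cells, postnatal day 14) and the 50 P30_WT IHCs (postnatal day 30) carried vGlut3-P2A-iCreER/+ and Ai9/+. The 46 P14_iOHCs (induced outer hair cells, postnatal day 14) carried vGlut3-P2A-iCreER/+, Tbx2 flox/- and Ai9/+, so that 1 *Tbx2* allele was already lost in every cell of the animal and the other could be cut by Cre. All 3 groups thus shared the tamoxifen-inducible Cre under the control of *Slc17a8* (vGlut3) and the Ai9 reporter, and the red reporter marked the cells that were picked. P14_iOHCs were in addition chosen for their smaller size. The labels name no mouse, so every group counts as 1 sample, no p-value was computed, and each SD below is the spread over cells.

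A ribosome has a large and a small subunit, and most ribosomal proteins are present in a single copy, with the acidic stalk proteins as the known exception, so most are needed in near-equal amounts. Their mRNAs are short, abundant and made in almost all cells, and many begin with a run of pyrimidines (C and T) at the start of transcription, through which their translation follows growth signals such as mTOR. Hair cells are post-mitotic and keep these mRNAs for life.

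The targeted gene and the markers were checked first. *Tbx2* read 260 ± 127 CPM (counts per 1000000 counts of the cell; SD, n = 55 cells) in P14_WT IHCs and 69.3 ± 87.4 CPM (SD, n = 46 cells) in P14_iOHCs, but counts over the whole gene do not show which cells had lost the floxed exon. The 4 outer hair cell markers summed to a median of 42947 CPM in P14_iOHCs and 240 CPM in P14_WT IHCs, and the 4 inner hair cell markers to 317 and 5443 CPM. Totals ran from 4326416 to 25035444 counts per cell and formed a lower set of 51 cells, up to 10267217 counts, and an upper set of 100 cells, from 11814928 counts, with cells of all groups in both. The sets followed the numbers in the labels. The lower set held P30_WT IHC 1 to 23, P14_WT IHC 1 to 16 and P14_iOHCs that all lay among 1 to 18. A difference between the sets is therefore one between blocks of labels as well as of total counts, and the 2 cannot be told apart. The supporting-cell score used below is the mean of log2(CPM + 1) over 17 markers. The summed level of these markers was 992 to 7482 CPM in P14_WT IHCs, 3220 to 26009 CPM in P14_iOHCs and 1287 to 7471 CPM in P30_WT IHCs, with *Prox1* at 0 counts in both P14 groups and *Epyc* at 0 in P30_WT IHCs. *S100a1* made up most of these sums, with means of 1881 CPM in P14_WT IHCs and 7868 CPM in P14_iOHCs. Of the 15 markers kept, 12 were over 2-fold higher in P14_iOHCs and 1, *Bdnf*, over 2-fold lower (-1.61). Summed markers of glia reached 77.2, 277 and 45.8 CPM in the highest cell of P14_WT IHCs, P14_iOHCs and P30_WT IHCs, and those of fibroblasts 865, 4594 and 530 CPM.

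The ribosomal protein genes together took a small and similar share of the counts in all 3 groups. It was 1.62 ± 0.229% (SD, n = 55 cells) in P14_WT IHCs, with a lowest cell of 1.07%, a median of 1.59% and a highest of 2.16%. In P14_iOHCs it was 1.79 ± 0.405% (SD, n = 46 cells), from 1.05% through a median of 1.69% to 2.90%. In P30_WT IHCs it was 1.65 ± 0.337% (SD, n = 50 cells), from 0.686% through 1.58% to 2.31%. The 3 ranges overlapped almost wholly, and the differences of the means were smaller than 1 SD over cells. The P14_iOHCs were the most spread of the groups, with 6 of 46 cells above the highest P14_WT IHC and 1 below the lowest. Counts pooled over a group gave 1.605% (exact 95% binomial interval 1.604% to 1.606%), 1.809% (1.808% to 1.810%) and 1.677% (1.676% to 1.678%) for the same order of groups. These intervals cover counting error only, because no molecular identifiers were used and several reads may stem from 1 molecule.

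**Figure D1:**
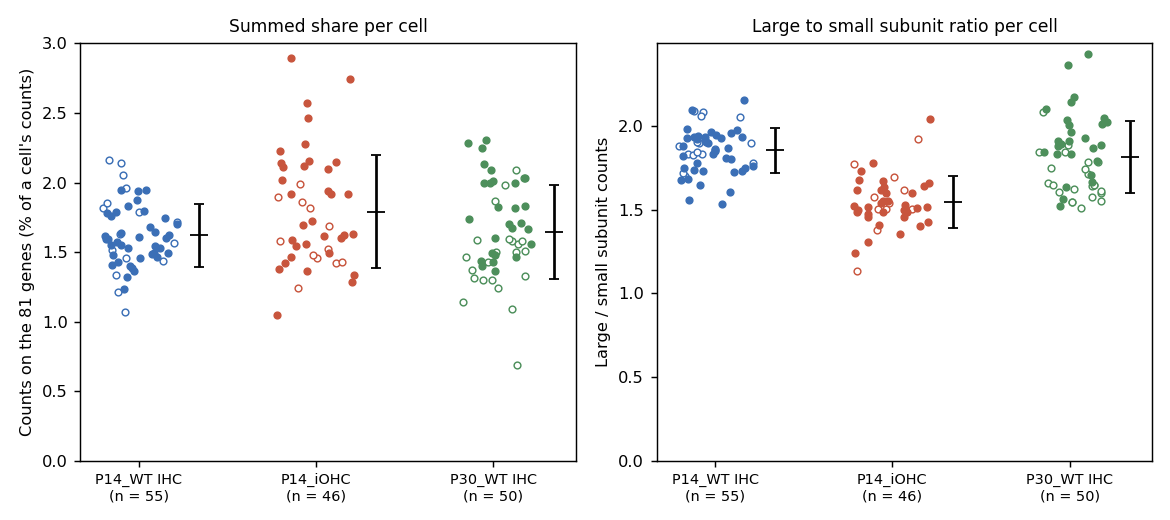
Each point is 1 cell; open points belong to the lower set of total counts and filled points to the upper set, and the bar beside each group is the mean and SD over cells. The left panel gives the percentage of a cell's counts on the 81 genes, where the group ranges overlap, and the right panel the counts on large subunit genes divided by those on small subunit genes, where the mean is 1.85 in P14_WT IHCs, 1.55 in P14_iOHCs and 1.82 in P30_WT IHCs.

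The balance of the subunits differed more than the sum. Large subunit genes held 1.85 ± 0.134 times (SD, n = 55 cells) as many counts as small subunit genes in P14_WT IHCs, from 1.54 to 2.16, against 1.55 ± 0.158 times (SD, n = 46 cells) in P14_iOHCs, from 1.13 to 2.04. In P14_iOHCs 44 of 46 cells lay below the median of P14_WT IHCs and 25 below the lowest of them. The large subunit share was about equal, at 1.05 ± 0.146% (SD, n = 55) and 1.09 ± 0.251% (SD, n = 46), whereas the small subunit share was 0.570 ± 0.0892% and 0.706 ± 0.162%. In P30_WT IHCs the ratio was 1.82 ± 0.216 (SD, n = 50), with 1.69 ± 0.136 for the 23 cells of low totals and 1.93 ± 0.214 for the 27 of high totals. For P14_WT IHCs of low and high totals it was 1.89 ± 0.122 and 1.84 ± 0.137, so the P30 mean was lower in the lower set and higher in the upper set. For P14_iOHCs of low and high totals the ratio was 1.55 and 1.54. Without *Rps27*, *Rps28* and *Rps29*, left out after their values were seen, the ratio was 2.12 in P14_WT IHCs, 1.94 in P14_iOHCs and 2.21 in P30_WT IHCs.

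Among the members, levels were compared per length, as CPM per kilobase of the principal mRNA (the main annotated transcript, GENCODE release M21). *Rpl41*, whose product is the smallest protein of the ribosome, was highest in P14_WT IHCs at 1587 ± 411 CPM per kb (SD, n = 55), followed by *Rps29*, a small zinc-binding protein of the small subunit, at 1185 ± 328. *Rplp1*, an acidic stalk protein that helps to recruit elongation factors, stood at 853 ± 239, *Rpl36* at 717 ± 192 and *Rpl27* at 682 ± 215, and these last 3 neighbours in the order lay within 1 SD of each other. *Rps29* held first place in P14_iOHCs at 2246 ± 701 (SD, n = 46) and in P30_WT IHCs at 1831 ± 570 CPM per kb (SD, n = 50), where *Rpl41* read 1702 ± 467 and 1783 ± 499. *Rpl36* and *Rplp1* were among the 8 highest in all groups.

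At the other end stood tissue-restricted paralogues and members with no usable counts. The median over the 79 members with an annotated mRNA was 198 CPM per kb in P14_WT IHCs. *Rpl10l*, the testis form of *Rpl10*, had 0 counts in every cell, and *Rpl39l*, the testis-enriched form of *Rpl39*, had counts in 1 cell only, a P30_WT IHC. *Rpl3l*, the muscle form of *Rpl3*, had counts in 1 P14_iOHC and 1 P30_WT IHC. A count of 3 corresponded to between 0.120 and 0.693 CPM in a single cell, which is the level that a count of 0 allows. The somatic partners were plentiful: *Rpl10* read 328 ± 129, 319 ± 141 and 332 ± 160 CPM (SD) in P14_WT IHCs, P14_iOHCs and P30_WT IHCs, and *Rpl3*, which lines the peptidyl transferase centre, 497 ± 193, 391 ± 215 and 478 ± 219 CPM. *Rpl39*, at the exit tunnel, read 185 ± 67.9, 137 ± 75.4 and 187 ± 75.01 CPM.

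*Rps10* was also near the floor, at 0.846 ± 2.49 CPM in P14_WT IHCs, 0.676 ± 2.17 CPM in P14_iOHCs and 1.47 ± 6.18 CPM in P30_WT IHCs, with counts in 20 of 55, 10 of 46 and 12 of 50 cells. *Rpl24* at 1.31 ± 4.93 CPM and *Rpl13a*, a common reference gene in PCR, at 4.73 ± 7.63 CPM were hardly higher in P14_WT IHCs, and *Rpl6l* read 0.293 ± 0.424 CPM. Exons of another annotated gene, RPS10-NUDT3, overlapped 63.6% of the bases of the *Rps10* mRNA. *Gm28037* overlapped 71.5% of *Rpl24*, *Gm45713* 59.3% of *Rpl13a*, and *Tlcd1* 55.4% of *Rpl23a*, which read 9.13 ± 7.70 CPM. The 9 members overlapped over at least 20% of their bases had a median of 72.3 CPM per kb in P14_WT IHCs, against 229 CPM per kb in the other 70, and *Gm28037* and *Gm45713* themselves had 0 counts in every cell. How reads falling in 2 genes were counted is not given in the sources used here, and the part of the overlap in these low values was not tested.

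The overlapping *Rps25* (52.2% with *Trappc4*) and *Rpl5* (46.6% with *Fam69a*) nonetheless read 243 ± 71.8 and 239 ± 97.5 CPM in P14_WT IHCs. The order depended on the length used: per kilobase of all exons of a gene, *Rplp1* was first in P14_WT IHCs at 853 CPM per kb, *Rpl41* next at 791, then *Rpl36* at 717 and *Rps29* at 667. *Rps20* and *Rps15a* have principal mRNAs of 3706 and 5179 bases, long for this family, where the median is 799 bases, and stood at 24.9 and 14.5 CPM per kb.

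Sharing of sequence also bears on the counts, because ribosomal protein genes have many processed copies. Of the 79 mRNAs, 8 shared no stretch of 100 bases with a transcript of another gene and 28 shared over 50% of such stretches, with a median of 32.9%. *Rps27* shared 98.4% with *Rps27rt*, and the aligned coding parts of the pair were identical over 252 bases. *Rpl10* shared 91.6%, *Rps6* 83.6% and *Rpl23a* 80.0%, whereas *Rpl22* and *Rpl32* shared none. Values of members with close copies are therefore uncertain as to which locus gave the reads.

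The first question of the study's design was how P14_iOHCs differ from inner hair cells of the same age. The ribosomal protein genes as a group hardly differed: over the 76 members kept by a mean of at least 1 CPM, the median log2 fold change of the mean levels (0.5 CPM added) was 0.09, the same as over all 14609 kept genes, and 49 members were higher and 27 lower. Only *Rps28* was over 2-fold higher and no member was over 2-fold lower. Among all kept genes, 19.9% were over 2-fold higher and 13.1% over 2-fold lower. Since low genes reach such folds more readily, the 3769 kept genes of at least 50 CPM are a closer background, with 8.76% higher and 7.24% lower, against 1.39% and 0% of the 72 members of at least 50 CPM. Small subunit genes had a median of 0.28 with 22 of 29 higher, and large subunit genes a median of 0.06 with 27 of 47 higher. Of all 14609 kept genes 7997 were higher.

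*Rps28*, a small protein of the 40S head near the mRNA exit channel, lies on chromosome 17 from 33819027 to 33824562 on the minus strand (GRCm38). It read from 35.7 through a median of 102 to 308 CPM in P14_WT IHCs and from 26.4 through 257 to 594 CPM in P14_iOHCs. The means were 112 ± 47.8 CPM (SD, n = 55) and 275 ± 118 CPM (SD, n = 46), a log2 fold change of 1.29 or 2.45-fold. Of the 46 P14_iOHCs, 45 were above the median of P14_WT IHCs and 17 above the highest of them, while 1 was below the lowest. The log2 fold change was 1.54 within the upper set of totals and 0.71, under the 2-fold limit, within the lower set, where P14_WT IHCs read 146 ± 59.0 CPM (SD, n = 16). It was 1.34 without the 11 P14_iOHCs whose supporting-cell score was above every P14_WT IHC. Pooled counts gave 106 CPM (exact 95% Poisson interval 105 to 106) and 276 CPM (275 to 277), counting error only. In P30_WT IHCs *Rps28* read 100 ± 49.4 CPM (SD, n = 50), from 29.7 to 284, about the level at P14.

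*Rps29* was next, from 226 through a median of 452 to 781 CPM in P14_WT IHCs and from 252 through 864 to 1458 CPM in P14_iOHCs, with 30 of 46 cells above the highest P14_WT IHC. Its log2 fold change was 0.92, and it was past 2-fold only with DESeq2's size factors, at 1.11. *Rps27*, a zinc-finger protein of the small subunit, read 147 ± 47.3 and 250 ± 90.0 CPM, a log2 fold change of 0.77, with 21 of 46 P14_iOHCs above all P14_WT IHCs. Together with *Rps27rt*, whose reads are hard to tell apart from its own, the log2 fold change was 0.79. *Rpl31* (124 ± 58.2 and 201 ± 127 CPM, log2 fold change 0.70) and *Rpl23a*, which helps to form the docking site for factors at the tunnel exit (9.13 ± 7.70 and 15.05 ± 15.2 CPM, 0.69), completed the 5 highest, the second from low counts and with much of its mRNA overlapped. The overlapping gene *Tlcd1* itself had means of 5.96 and 19.8 CPM, and its part in the value of *Rpl23a* was not tested.

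On the lower side the differences were smaller. *Rps2*, a core protein at the mRNA entry channel, read from 206 through 500 to 796 CPM in P14_WT IHCs and from 71.1 through 299 to 782 CPM in P14_iOHCs, with means of 491 ± 154 and 317 ± 166 CPM and a log2 fold change of -0.63. Of the P14_iOHCs, 12 were below the lowest P14_WT IHC and 7 above the median. *Rpl28* followed at -0.54 (254 ± 88.4 and 175 ± 68.9 CPM), then *Rpl35a* at -0.50, *Rps13* at -0.44 and *Rpl39* at -0.43. In the lower set of totals *Rps2* reached -1.16 and *Rpl28* -1.06. All 5 ranges overlapped between the groups.

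**Figure D2:**
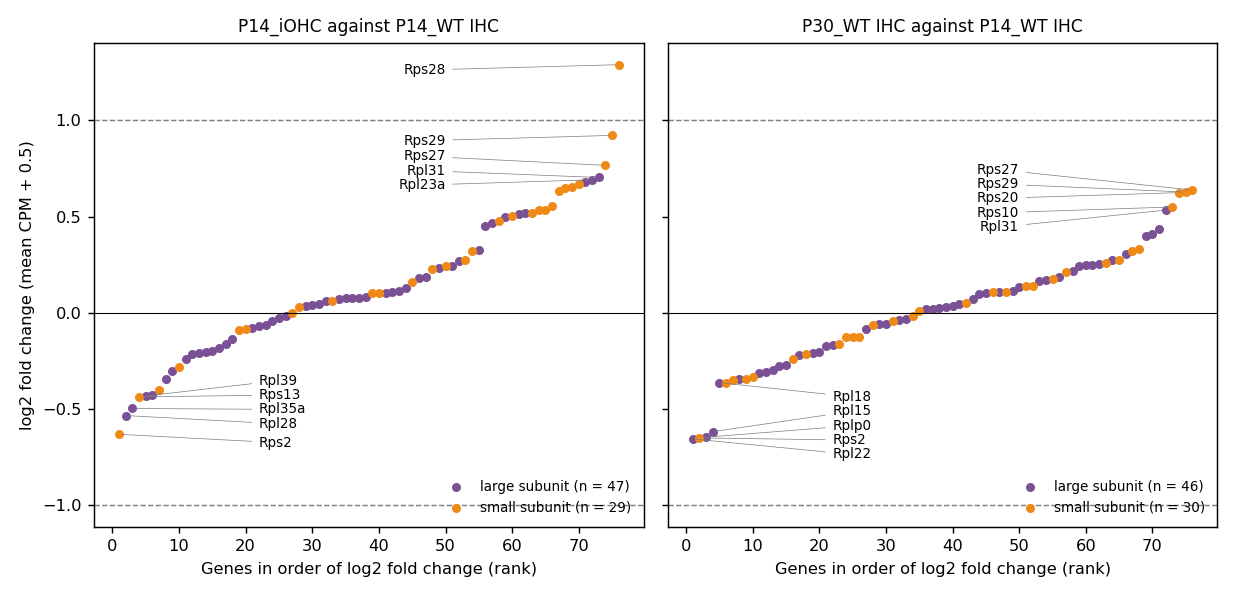
Each point is 1 gene, ordered from the lowest to the highest log2 fold change of the mean CPM (0.5 added), large subunit genes in purple and small subunit genes in orange, and the dashed lines mark 2-fold. The 5 genes at each end are named; only *Rps28*, in P14_iOHCs, lies outside the lines.

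Most members named for a known role differed little. Of the P stalk, *Rplp1* was lower in P14_iOHCs by its mean (426 ± 119 and 316 ± 99.1 CPM, log2 fold change -0.43), *Rplp0* was at -0.20 and *Rplp2* at 0.11, and all 3 differences were smaller than the SD over P14_WT IHCs. *Rpl5* and *Rpl11*, which with 5S rRNA bind Mdm2 when ribosome assembly fails, had log2 fold changes of 0.19 and 0.05. *Rps6*, the substrate of S6 kinase, was at 0.06, and *Rps27a*, made as a fusion with ubiquitin, at 0.03. *Rps19*, often mutated in Diamond-Blackfan anaemia, was higher at 0.53 (176 ± 74.7 and 255 ± 133 CPM), and *Rps25*, needed for some internal ribosome entry sites, at 0.24. Under alternative processing the value of *Rps19* ran from 0.07 to 0.68. *Rpl38*, known for its role in translating Hox mRNAs, was at -0.19, *Rpl22* at 0.07, *Rpsa* at -0.28, *Rpl10* at -0.04, *Rpl3* at -0.34 and the reference genes *Rpl32* and *Rpl13a* at -0.07 and -0.21. The signs of *Rplp0*, *Rplp2*, *Rpl5*, *Rpl10*, *Rpl11*, *Rpl13a*, *Rpl22*, *Rpl32*, *Rps6* and *Rps27a* changed under at least 1 alternative processing.

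**Figure D3:**
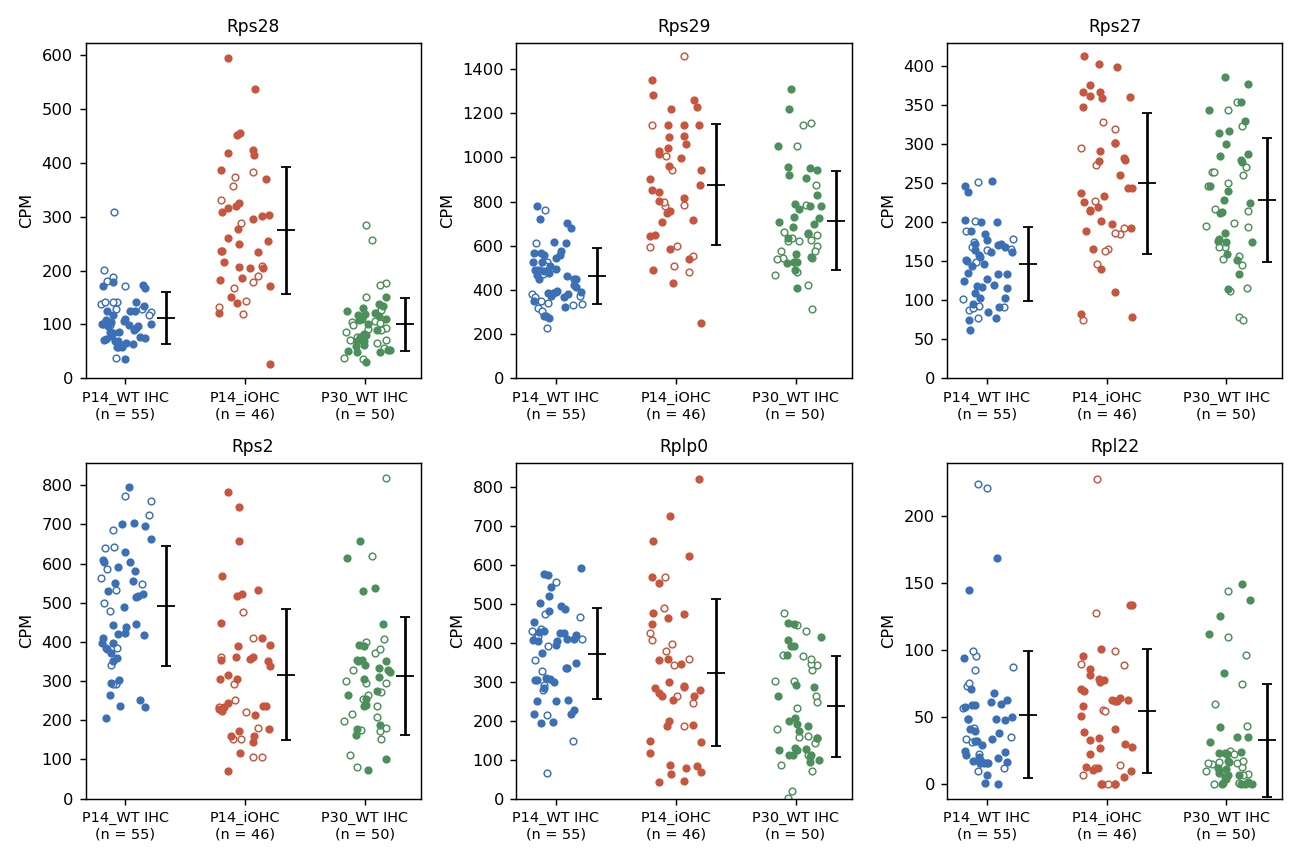
CPM of 6 genes in every cell (open points, lower set of total counts; filled points, upper set), with the mean and SD over cells beside each group. *Rps28* is higher in P14_iOHCs alone, *Rps29* and *Rps27* in P14_iOHCs and in P30_WT IHCs, *Rps2* is lower in both, and *Rplp0* and *Rpl22* are lowest on average in P30_WT IHCs.

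The second comparison was of age, P30_WT IHCs against the same P14_WT IHCs, and so it shares its control cells with the first. Over all cells the family was close to even. The median log2 fold change over 76 kept members was 0.03, against -0.01 over all 14097 kept genes, with 42 members higher and 34 lower. Of all kept genes 6965 were higher and 7132 lower. No member was past 2-fold, whereas 10.7% of kept genes were over 2-fold higher and 10.7% over 2-fold lower, and among kept genes of at least 50 CPM 1.74% and 3.37%. Small and large subunit genes both had a median of 0.03. The direction differed between the sets of totals. In the lower set the median over 75 kept members was -0.16, with 26 higher, against -0.11 over all kept genes. In the upper set it was 0.18, with 52 of 75 higher, against 0.04. The summed share was 1.67% at P14 and 1.48% at P30 in the lower set, and 1.60% and 1.79% in the upper set. DESeq2's size factors moved the median of all kept genes to 0.35 and that of the members to 0.37, with 69 of 76 higher, so directions in this comparison are relative to the scaling by total counts.

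*Rps27* was highest in the order at 0.64, from 147 ± 47.3 CPM at P14 to 228 ± 79.4 CPM at P30 (SD, n = 50), with 19 of 50 cells above the highest P14_WT IHC. *Rps29* was at 0.63, from 462 ± 128 to 714 ± 222 CPM, with 15 of 50 cells above the highest P14_WT IHC. *Rps20* was at 0.62 (92.3 ± 59.0 and 143 ± 60.5 CPM), *Rps10* at 0.55 from its trace level, and *Rpl31* at 0.53 (124 ± 58.2 and 179 ± 89.1 CPM). Of these, *Rps27*, *Rps29*, *Rps20* and *Rpl31* stayed higher within both sets of totals.

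The lower members at P30 were *Rpl22*, *Rps2*, *Rplp0*, *Rpl15* and *Rpl18*. *Rpl22*, an RNA-binding protein that also acts outside the ribosome in lymphocytes, read from 0 through a median of 39.3 to 223 CPM at P14 and from 0 through 15.9 to 149 CPM at P30. Its log2 fold change was -0.66, but -0.28 in the upper set of totals and -1.29 in the lower. *Rps2* was at -0.65, with 313 ± 151.3 against 491 ± 154 CPM, and 12 of 50 cells were below the lowest P14_WT IHC. *Rplp0*, the base of the stalk, was at -0.65 (372 ± 116 and 237 ± 129 CPM) with 7 of 50 cells above the P14 median, in contrast to *Rplp1* at 0.03 and *Rplp2* at 0.09. *Rpl15* was at -0.62 (285 ± 109 and 185 ± 91.4 CPM) and *Rpl18* at -0.36.

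The remaining genes named for their role, apart from *Rpsa*, differed little with age. *Rpsa* was at -0.36. Its means at P14 and P30 were 340 and 308 CPM in the lower set of totals, but 232 and 116 CPM in the upper set. *Rps25* was at 0.33, *Rpl5* at -0.21, *Rpl11* at 0.13, *Rps6* at -0.13, *Rps27a* at 0.14, *Rps19* at 0.11 and *Rpl38* at 0.16. *Rpl39* and *Rpl10* were at 0.02, *Rpl3* at -0.06, *Rpl32* at -0.04 and *Rpl13a*, from low counts, at 0.43. *Rps28* was at -0.16. With DESeq2's size factors the signs of *Rpl3*, *Rpl5*, *Rpl32*, *Rps6* and *Rps28* were the opposite, while *Rps2*, *Rplp0*, *Rpl22* and *Rpl15* were lower with these factors too. The signs of *Rplp1*, *Rplp2*, *Rpl10*, *Rpl11*, *Rpl39* and *Rps19* turned under at least 1 other alternative, such as the lower set of totals.

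The sequences at the transcription starts were looked at because the levels of members varied together across cells. RefSeq promoters (GRCm38.p6; 250 bases before to 50 after the start) matched 60 of the 81 members by symbol. A run of at least 8 pyrimidines on the gene's strand, within 15 bases of the start on either side, was present in 24 of the 60 and in 11.9% of all 27025 genes. In the 300 bases, on both strands, the letters CCGGAA were present in 48.3% of members and 15.2% of all genes, CTTTCC in 48.3% and 26.3%, and AAGATGG in 13.3% and 6.48%. CTTTCC overlaps the pyrimidine run in some of them. The following 30-base windows, 15 before and 15 from the start, belong to members named for their differences, with the longest pyrimidine run in capitals:
Rps28 (chr17:33824548-33824577, minus strand): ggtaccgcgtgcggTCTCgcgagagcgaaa
Rps27 (chr3:90213634-90213663, minus strand): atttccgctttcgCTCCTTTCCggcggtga
Rps2 (chr17:24720048-24720077, plus strand): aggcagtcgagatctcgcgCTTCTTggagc
Rpl28 (chr7:4792950-4792979, plus strand): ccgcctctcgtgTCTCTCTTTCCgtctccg
Rplp0 (chr5:115559452-115559481, plus strand): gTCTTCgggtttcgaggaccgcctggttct
Rpl15 (chr14:18270972-18271001, minus strand): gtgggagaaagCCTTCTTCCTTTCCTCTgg
All windows are at the RefSeq starts, and those of *Rps2*, *Rpl28* and *Rpl15* lie inside the GENCODE gene spans. A long run was thus found in genes that were higher (*Rps27*, 9 bases) and lower (*Rpl28*, 11 bases; *Rpl15*, 17 bases) alike, and *Rps28* had a longest run of 4 bases in this window. A match is a description of the letters and not of a site in use.

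Members varied together from cell to cell. Over the 70 members of at least 50 CPM in each group, the median Spearman's rho between pairs was 0.12 in P14_WT IHCs, 0.23 in P14_iOHCs and 0.18 in P30_WT IHCs, over 2415 pairs and 55, 46 and 50 cells. Over the pairs of all 2822 genes of that level it was 0.01 in each group. The pairs share libraries, depth and the scaling to the total, so these are descriptions. All 70 members had a positive mean rho with the sum of the others, from 0.12 (*Rpl4*) to 0.68 (*Rpl37a*). *Rpl32*, a reference gene, had 0.62, *Rps27* 0.58 and *Rpl10* 0.14. The spread of a member over cells, as the SD divided by the mean, had a median of 38.6%, 46.4% and 46.6% in P14_WT IHCs, P14_iOHCs and P30_WT IHCs, below the 63.2%, 75.4% and 74.1% of all genes of at least 50 CPM.

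Outside the family, the genes most like it by the mean over the 3 groups of Spearman's rho with the summed level were *Atp5e* (0.62), *Elob* (0.57), *Ppia* (0.53), *Atp5h* (0.50), *Gm10123* (0.50), *Dynlt1-ps1* (0.49), *Gpx4* (0.49), *Nedd8* (0.48), *Rps27l* (0.48) and *Ndufa4* (0.48). *Atp5e*, *Atp5h* and *Ndufa4* encode parts of the respiratory chain or ATP synthase, and *Ppia* is a prolyl isomerase used as a reference gene.

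The share of counts on the family was set beside measures of each library and the supporting-cell markers, as Spearman's rho over cells. In P14_iOHCs its rho with the supporting-cell score was 0.50 (n = 46 cells), with the number of detected genes 0.41, with the mitochondrial share 0.25 and with the total 0.12. In P14_WT IHCs the same values were 0.08, -0.36, 0.21 and -0.20 (n = 55), and in P30_WT IHCs 0.16, -0.48, -0.31 and 0.21 (n = 50). In the 34 P14_iOHCs of the upper set of totals the rho with the score was 0.60 and in the 12 of the lower set 0.06. In P14_WT IHCs it was 0.29 in the upper and -0.33 in the lower set (n = 39 and 16), and in P30_WT IHCs 0.43 and 0.10 (n = 27 and 23). In the upper set at P30 the rho with the total was -0.71 and with the mitochondrial share 0.50, so both signs were opposite to those over all cells. Of the 11 P14_iOHCs whose score was above every P14_WT IHC, 5 were among the 6 with the highest family share. Without those 11 cells the share was 1.67%, the log2 ratio to P14_WT IHCs went from 0.14 to 0.05, and the median log2 fold change over the members from 0.09 to -0.00. The part of supporting-cell RNA in these values was not tested. At P30, 3 of 50 cells exceeded the highest P14_WT IHC in share and none in score.

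**Figure D4:**
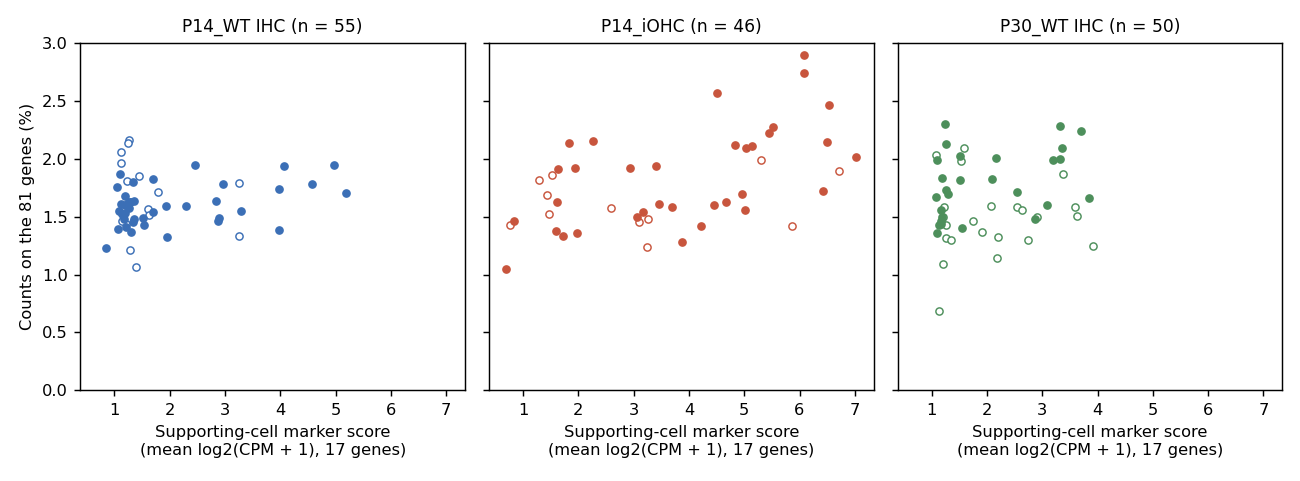
Each point is 1 cell (open, lower set of total counts; filled, upper set), with the supporting-cell marker score on the horizontal axis and the percentage of counts on the 81 genes on the vertical axis. Of the 6 P14_iOHCs whose share is above every P14_WT IHC, 5 also have a score above every P14_WT IHC, while no P30_WT IHC has.

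Among the processed copies a few differed widely. Of 319 listed "-ps" copies 58 were kept in the first comparison, with a median log2 fold change of 0.28. Over 2-fold higher were 12 (20.7%) and over 2-fold lower 3 (5.17%), against 19.9% and 13.1% of all kept genes, so the higher share was near the background. Their summed share was 0.0246 ± 0.00695% (SD, n = 55) in P14_WT IHCs, 0.0447 ± 0.0212% (SD, n = 46) in P14_iOHCs and 0.0314 ± 0.0168% (SD, n = 50) in P30_WT IHCs. The 3 with the largest difference in P14_iOHCs were *Rpsa-ps10* (1.20 ± 0.679 and 39.6 ± 55.1 CPM, log2 fold change 4.56), *Rps2-ps10* (1.51 ± 1.64 and 40.8 ± 55.6 CPM, 4.36) and *Rpl34-ps1* (0.849 ± 0.599 and 24.9 ± 25.2 CPM, 4.23). With age 57 copies were kept, 9 (15.8%) higher and 3 (5.26%) lower by over 2-fold, against 10.7% and 10.7% of all kept genes, led by *Rpsa-ps10* (35.2 ± 59.1 CPM at P30, 4.39), and *Rpl34-ps1* (13.3 ± 15.8 CPM, 3.35). *Rpsa-ps11* was lower at P30 by its mean, with counts in 2 P14_WT IHCs, of which 1 had 138 CPM, and 0 counts in every P30_WT IHC.

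The copies were high in some cells of a group and low in others. No P14_WT IHC had over 10 CPM of *Rpsa-ps10* or *Rpl34-ps1*, whereas 21 and 28 of 46 P14_iOHCs had, 12 of them both. In P30_WT IHCs 23 and 22 of 50 cells had over 10 CPM, 20 of them both, and all of these were in the upper set of totals, with 0 of 23 cells in the lower set. That lower set is P30_WT IHC labels 1 to 23. P14_iOHC labels 19 to 29 all had under 10 CPM of *Rpsa-ps10*, labels 30 to 43 all had more, and the other labels were mixed. What the label order stands for is not given, and its part in these differences was not tested. Within the lower set the log2 fold changes at P30 were -0.03 for *Rpsa-ps10* and -0.25 for *Rpl34-ps1*, and within the upper set 5.22 and 4.11. The parent *Rpsa*, a protein of the small subunit first known as a laminin receptor precursor, had a rho with its copy of -0.35 over all P30_WT IHCs (n = 50), but 0.67 in the 23 cells of low totals and 0.49 in the 27 of high totals, so the sign was the opposite within each set. In P14_iOHCs the rho was -0.00 (n = 46). The sum of both genes had a log2 difference from P14_WT IHCs of -0.14 at P30 and -0.05 in P14_iOHCs, against -0.36 and -0.28 for *Rpsa* alone. With the copy added, the difference of *Rpsa* was thus nearer to 0, whereas that of *Rpl34* was farther from it, at 0.42 against 0.23 in P14_iOHCs and 0.15 against 0.04 at P30. For *Rps2* the sum with *Rps2-ps10* was at -0.46 in P14_iOHCs and -0.65 at P30.

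The aligned coding part of *Rpsa* and its copy differed at 6 of 885 bases, that of *Rpl34* at 2 of 351 and that of *Rps2* at 5 of 879. The stretch of *Rpsa* from coding base 185 to 244, counted from 1 at the A of the start codon, is shown because reads from it can be told apart only at the 2 capitals, T210C and C219T:
Rpsa: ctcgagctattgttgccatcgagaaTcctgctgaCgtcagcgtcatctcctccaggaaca
Rpsa-ps10: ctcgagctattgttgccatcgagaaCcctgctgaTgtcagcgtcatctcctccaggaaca
Whether the reads counted on the copies came from the copies or from the parents was not tested.

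**Figure D5:**
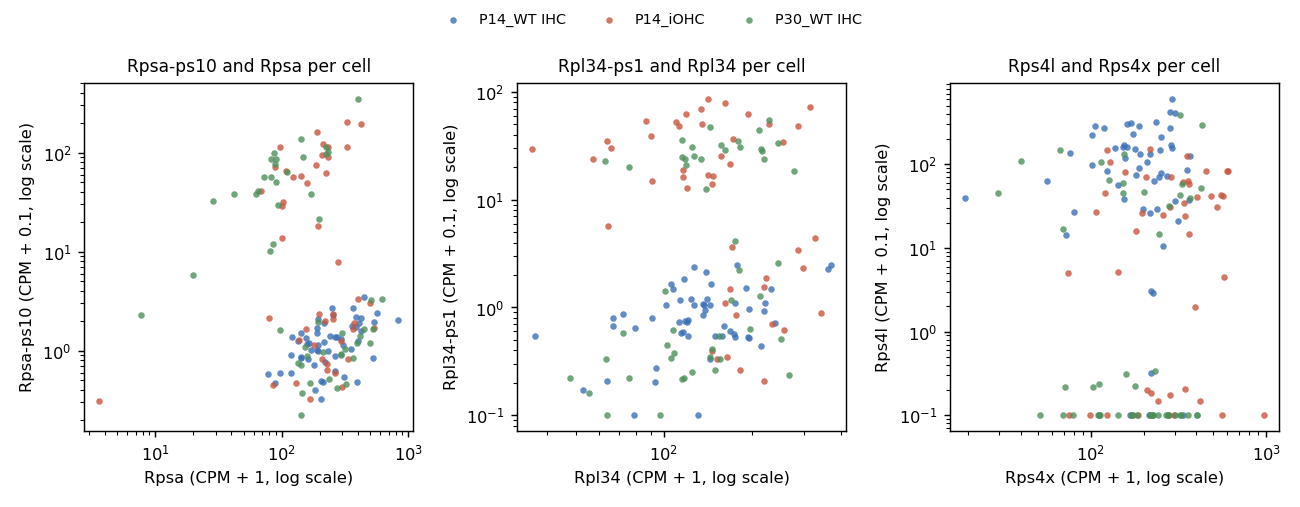
Each point is 1 cell on logarithmic axes, with the parent gene's CPM plus 1 on the horizontal axis and the relative's CPM plus 0.1 on the vertical axis. All P14_WT IHCs lie in the lower cloud for *Rpsa-ps10* and *Rpl34-ps1*, P14_iOHCs and P30_WT IHCs lie in both clouds, and *Rps4l* has counts in 24 of the 50 P30_WT IHCs.

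Among 9 relatives of full length outside the rule, *Rps4l* had the largest differences, at 133 ± 126 CPM (SD, n = 55) in P14_WT IHCs, 35.8 ± 41.5 CPM in P14_iOHCs (log2 fold change -1.88) and 33.97 ± 74.2 CPM in P30_WT IHCs (-1.96). At P30 it had counts in 18 of 23 cells of low totals (mean 50.3 CPM, log2 fold change -1.003 against P14_WT IHCs of low totals) and in 6 of 27 of high totals (20.1 CPM, -2.84). It matched *Rps4x* at 80.3% of aligned coding bases, so the pair is more easily separated than the copies above, as this stretch of coding bases 477 to 536 of *Rps4x* shows with the 20 different bases in capitals:
Rps4x: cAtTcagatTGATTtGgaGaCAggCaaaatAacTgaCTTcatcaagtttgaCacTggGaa
Rps4l: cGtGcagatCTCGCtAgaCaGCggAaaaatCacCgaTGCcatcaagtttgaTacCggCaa
The X-linked *Rps4x* itself read 203 ± 80.96, 315 ± 182 and 205 ± 110 CPM. The next relatives in P14_iOHCs were *Rps27rt* at 0.95 and *Rpl22l1*, the paralogue of *Rpl22*, at -0.66, and with age *Rpl36al* at 1.18 from 3.06 CPM. *Rps3a1* (322 ± 92.8, 349 ± 159 and 350 ± 155 CPM), *Fau* and *Rack1* differed by less than the SD over cells in both comparisons.

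Most genes of translation outside the ribosome differed little too. Of 21 elongation and initiation factors and other mRNAs of the same class, none was past 2-fold in either comparison. Of all kept genes 19.9% were higher and 13.1% lower in P14_iOHCs, and 10.7% each way at P30. The medians of the list were 0.18 in P14_iOHCs and -0.10 at P30. *Eef1a1*, the elongation factor that brings tRNA to the ribosome, read 900 ± 355 CPM in P14_WT IHCs and 1262 ± 701 CPM in P14_iOHCs (log2 fold change 0.49). *Hnrnpa1* at -0.99, just short of the 2-fold limit, *Eif3f* at -0.66 and *Eif3a* at -0.56 had the largest differences in P14_iOHCs. With age these were *Nap1l1* at 0.62, *Eef1g* at -0.62 and *Eif3m* at -0.47.

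Of 30 ribosome biogenesis genes, 21 were below 0 in P14_iOHCs (median -0.21), where 6612 of all 14609 kept genes were, and 18 at P30 (median -0.12), where 7132 of 14097 were. Over 2-fold higher and lower were 2 and 2 (6.67% each) in P14_iOHCs, against 19.9% and 13.1% of all kept genes. At P30 they were 1 and 0 (3.33% and 0%), against 10.7% each way. *Rrp9*, a box C/D snoRNP protein, had the largest difference in both, from 1.76 ± 8.77 CPM to 12.8 ± 29.5 CPM (2.56) and 12.0 ± 24.1 CPM (2.47), all with an SD over cells above the mean. *Dkc1*, the pseudouridine synthase, was at 1.72 and *Gar1*, its partner in the same particle, at -1.53 in P14_iOHCs. At P30 *Gar1* was at -0.86 and *Rrp12* at 0.84.

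Of 16 growth regulators, the mTOR complex genes *Mtor* and *Rptor* were at -0.27 and -0.02 in P14_iOHCs and at -0.12 and 0.03 at P30. *Mycn* (2.70 ± 9.11 and 0.259 ± 1.27 CPM, log2 fold change -2.08), *Myc* (8.86 ± 19.7 and 1.73 ± 5.36 CPM, -2.07) and *Max*, the partner of Myc proteins (56.7 ± 48.3 and 117 ± 106 CPM, 1.04), had the largest differences in P14_iOHCs. At P30 *Mycl* read 1.42 ± 7.38 CPM against 60.6 ± 66.2 CPM at P14 (-4.99), *Myc* was at -1.19 and *Eif4ebp1* at -0.73. The medians of the list were -0.06 and -0.16. Over 2-fold higher and lower were 1 and 2 (6.25% and 12.5%) in P14_iOHCs, against 19.9% and 13.1% of all kept genes. At P30 they were 0 and 2 (0% and 12.5%), against 10.7% each way.

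The ribosomal proteins of the mitochondrion are encoded by nuclear genes of another family. Over all cells their mean share was similar, at 0.644 ± 0.0735% (SD, n = 55), 0.600 ± 0.0734% (SD, n = 46) and 0.602 ± 0.122% (SD, n = 50) in the 3 groups. In the lower set of totals it was 0.591%, 0.580% and 0.511% in the same order, and in the upper set 0.665%, 0.607% and 0.681%. Of 77 listed genes 76 were kept, with medians of -0.05 in P14_iOHCs and -0.11 at P30. *Mrps6* stood apart in P14_iOHCs, at 414 ± 168 CPM in P14_WT IHCs and 34.1 ± 40.9 CPM (log2 fold change -3.58), followed by *Mrps27* at -1.21 and *Mrpl32* at -1.01. These 3 (3.95%) were the only ones past 2-fold there, with 0% higher, against 13.1% lower and 19.9% higher of all kept genes. With age *Mrpl50* at -1.14 and *Mrpl47* at 1.05 were past 2-fold, 1.32% each way against 10.7% of all kept genes, and *Mrps35* was at -0.78.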

How the data were processed

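The data are deposited whole-number counts per gene for single cells (55, 46 and 50 in the groups), which the authors made with a Smart-Seq HT kit, Trimmomatic 0.39, HISAT2 2.1.0 (GRCm38) and HTSeq 0.10.0, per the submitters' notes, without normalization. The annotation release, strandedness and treatment of ambiguous reads are not given in the sources used here. Groups came from the labels. CPM scales each count by the summed counts of its cell; group levels are means over cells, and a log2 fold change compares means with 0.5 CPM added, keeping genes whose 2 group means average 1 CPM or more. Each cell is a library and no animal is named, so no test was run and past 2-fold is a rule of size. No libraries of a group were identical, and no doublet caller was run. Lengths, positions and sequences came from GENCODE M21 and RefSeq. The members and lists were chosen with earlier results of these data known. Named members are the 5 highest and lowest per length, the 5 at each end of each comparison, those past 2-fold and a set fixed for role; the 10 most similar genes had at least 50 CPM in each group. The calculation was tested on simulated data. Python 3.11.15, numpy 2.4.6, pandas 2.3.3, scipy 1.17.1, matplotlib 3.10.9, biopython 1.88, R 4.3.3, edgeR 4.0.16 (TMM) and DESeq2 1.42.0 (size factors) were used, with seed 20261. Alternatives covered scaling, averaging, filter, pseudocount, fold, thinned depth, sets of cells, members and copies. A set of members enlarged by relatives is not reported here.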

Additional observations from a re-analysis of the deposited data

How the results depend on the processing

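No paired analysis was possible because the numbers in the labels only name cells and the results come from no test. All alternative values of the summed share stayed within 1 SD over cells of 1.62, 1.79 and 1.65%, ranging over 1.51 to 1.74%, 1.61 to 1.91% and 1.48 to 1.95%. The number of members past the fold and higher in P14_iOHCs was 2 with DESeq2 size factors, 0 at 4-fold and 3 in the lower set of totals. In the lower set 2 were lower. These counts were out of 75, 76 and 77 kept members. Of all kept genes 22.7%, 9.79% and 23.7% were higher in the same settings, and 24.8% were lower in the lower set. With age, 1 member was over 2-fold higher with summed counts (*Rps10*), with the median over cells and in the lower and upper sets. The shares of all kept genes that were higher there were 12.03%, 6.72%, 16.69% and 15.15% in the same order. Over 2-fold lower with age were 2 members with the median over cells, 1 without a filter (*Rpl32l*) and 3 in the lower set. The matching shares of all kept genes that were lower were 28.71%, 4.82% and 20.99%. DESeq2 size factors moved the age difference of the summed level to a log2 of 0.37 and the median over members to 0.37. In P14_iOHCs the summed level was at -0.05 in the lower set and the median over members at -0.01 there. At P30 the summed level was at -0.17 and the median over members at -0.16 in the lower set. Without *Rps27*, *Rps28* and *Rps29*, an alternative chosen after seeing the data, the large to small ratio was 2.12, 1.94 and 2.21 in P14_WT IHCs, P14_iOHCs and P30_WT IHCs. In the lower set of totals *Rps28* was at 0.71 and *Rps2* at -1.16 in P14_iOHCs, and *Rpl35a* at -0.72 at P30. The causes were not tested. Single cells limit precision at low counts, where 3 counts are up to 0.693 CPM.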
